A study of Mus musculus with 9 samples.

Results

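The interferon regulatory factors (IRFs) are transcription factors that share a DNA-binding domain recognising GAAA repeats, and 8 genes of the family were examined: Irf1, Irf2, Irf3, Irf4, Irf5, Irf7, Irf8 and Irf9. They were chosen by gene name, as every probe set whose platform symbol is one of these names. The search gave 14 of 45037 probe sets that are not controls, and 8 of 18193 named genes. Where a gene had several probe sets, the brightest by its mean over the 9 arrays stood for the gene, and the others were set beside it. The samples were CD11b+ splenocytes of C57BL/6 mice, obtained by magnetic selection for the integrin CD11b from spleen cells that adhere, and their RNA was hybridised to Affymetrix MOE430 arrays. The HighThreat group held 6 animals exposed repeatedly to social threat, with 1 array each. The LowThreat group held 6 animals that lived without such threat, and each of its 3 arrays carried RNA pooled from 2 of them, so that a pool averages animals while a HighThreat array shows a single animal. Age and sex are not given in the labels. The comparison asks how social threat changed expression in these cells.

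In textbook terms, IRF3, IRF5 and IRF7 are activated by kinases downstream of Toll-like receptors and of sensors of foreign nucleic acid, and switch on interferon and cytokine genes. IRF9 joins STAT factors in the complex ISGF3, which the type I interferon receptor activates and which binds the interferon-stimulated response element. IRF1 activates and IRF2 mostly represses genes with the same element. IRF4 and IRF8 are factors of blood cells that bind DNA weakly alone and pair with the ETS factors PU.1 and SPIB or with BATF. IRF8 directs progenitors towards monocytes and dendritic cells and away from granulocytes, and IRF4 serves dendritic cells, alternatively activated macrophages, B cells and plasma cells.

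Values are log2 expression, on which a difference of 1 is a doubling, and differences are HighThreat minus LowThreat. Each was tested with limma across 13078 genes, and a gene is said to have risen or fallen where its Benjamini-Hochberg adjusted p was under 0.05. The 9 arrays had medians between 3.19 and 3.22, no batch is labelled, and their number limits the precision. Correlated across genes (no independent replicates), arrays had r from 0.996 to 0.998 within HighThreat, from 0.996 to 0.998 within LowThreat and from 0.972 to 0.977 between them. The sort antigen gene Itgam had 8.50 ± 0.070 in HighThreat and 7.93 ± 0.026 in LowThreat arrays (SD, n = 6 and 3). It rose by 0.57 (SE 0.051, adjusted p = 1.7e-06 by limma), so the sort marker itself differed between the groups. The lysozyme gene Lyz2 of macrophages and granulocytes had 12.9 in HighThreat and 12.7 in LowThreat arrays and rose by 0.12 (SE 0.044, adjusted p = 0.0480). Both markers of CD11b+ cells were thus bright in both groups but higher in HighThreat.

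Among the 8 genes, Irf4 and Irf8 stood well below their control values in threat animals, and the other 6 differed by less than 1.5-fold. All 8 passed the filter on dim genes and were tested. Irf9, Irf3 and Irf7 rose, Irf4, Irf8 and Irf5 fell, and Irf1 and Irf2 did not pass. Thus 6 of 8 were called, where 45.8% of all tested genes were, and with so high a background the count itself says little. At 1.5-fold or more, 2 of the 8 were called, both lower, where 5.9% of all genes were lower, 5.31% higher and 11.2% in either direction. The median difference of the 8 genes was -0.05, and that of all genes was 0.03. In bulk RNA, fewer cells of a type and less RNA per cell cannot be told apart, and this holds for every difference below.

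**Figure D1:**
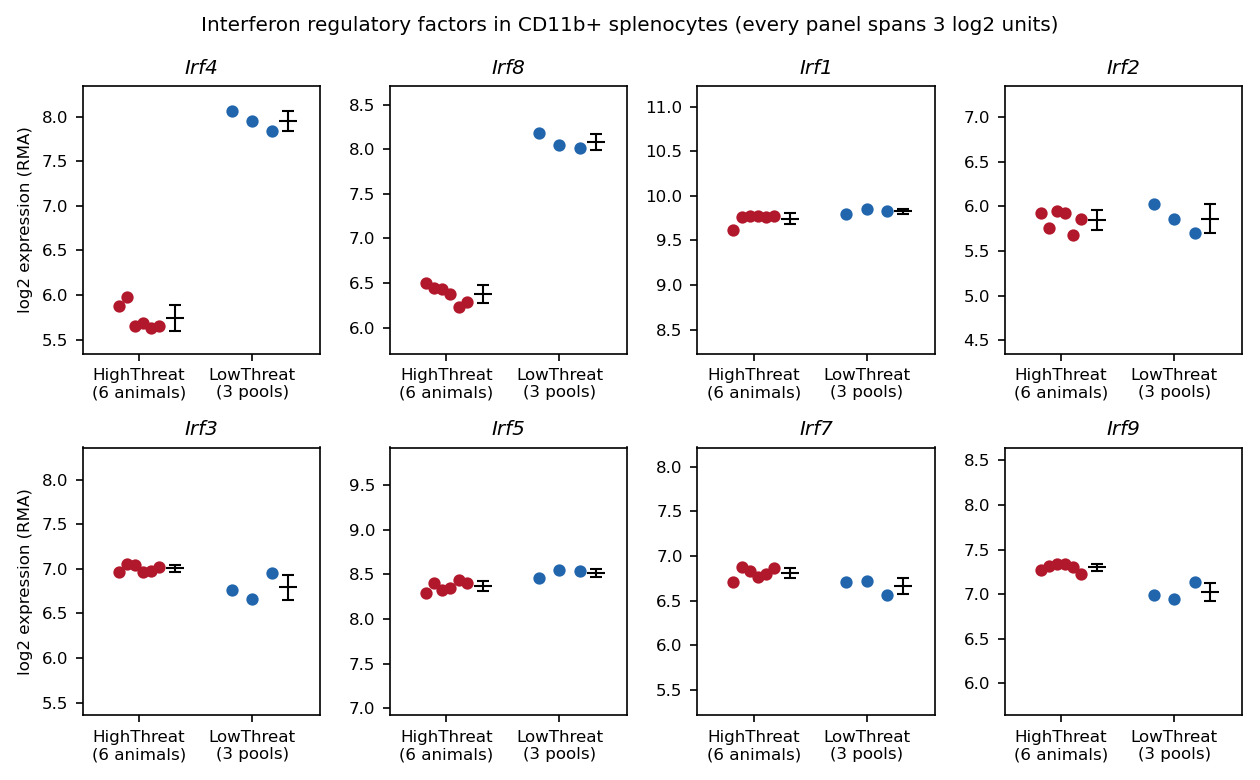
Each panel shows log2 expression (vertical axis) of an interferon regulatory factor gene, with 1 point per array for 6 HighThreat animals (left, red) and 3 LowThreat pools (right, blue), and the mean and SD beside each group. All panels span 3 log2 units. Irf4 (at most 5.97 in HighThreat, at least 7.83 in LowThreat) and Irf8 (at most 6.50 against at least 8.02) are far apart, while the other 6 genes differ by at most 0.27.

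Irf4, the regulator of plasma cell and alternative macrophage programmes, had the largest difference of the family. Its brighter probe set had a lowest value of 5.63, a median of 5.67 and a highest value of 5.97 in the 6 HighThreat animals, against 8.06, 7.95 and 7.83 in LowThreat pools 1-2, 3-4 and 5-6. All 6 threat animals lay far below the lowest pool. The means were 5.74 ± 0.15 in HighThreat and 7.95 ± 0.11 in LowThreat (SD, n = 6 and 3), and Irf4 fell by 2.20 (SE 0.084, adjusted p = 1.2e-09), which is 4.61-fold. It ranked 31 when all 13078 genes were ordered from the largest fall. The second Irf4 probe set, which was dimmer, fell by 1.08 (SE 0.12, adjusted p = 3.8e-05 over 27022 probe sets), with means of 3.72 ± 0.22 in HighThreat and 4.80 ± 0.15 in LowThreat arrays. Both probe sets separated the groups, but the size of the fall was 4.61-fold by the chosen probe set and 2.12-fold by the other.

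Irf8, the lineage factor of monocytes and dendritic cells, was likewise lower in every threat animal. The HighThreat values ran from 6.23 over a median of 6.40 to 6.50, against 8.18, 8.04 and 8.02 in LowThreat pools 1-2, 3-4 and 5-6. The groups did not overlap, and the gap between them exceeded the spread within each. Irf8 fell by 1.70 (SE 0.067, adjusted p = 1.4e-09), 3.26-fold, from group means of 6.38 ± 0.10 in HighThreat and 8.08 ± 0.090 in LowThreat (SD, n = 6 and 3), and ranked 80 among all genes from the largest fall. Its second probe set fell by 1.75 (SE 0.059, adjusted p = 7.6e-09), with 5.79 ± 0.086 in HighThreat and 7.54 ± 0.057 in LowThreat arrays. For Irf8 the probe sets therefore gave nearly equal sizes.

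The start regions of Irf4 and Irf8 are printed because these genes carry the main difference and fell in the same animals. Sequences and coordinates are those of RefSeq on the mouse build GRCm38.p6, in which Irf4 lies on chromosome 13 (30749233 to 30766981) and Irf8 on chromosome 8 (120736358 to 120756694), both on the plus strand. The other members lie on chromosome 11 (Irf1, 53770014 to 53778374), chromosome 8 (Irf2, 46739745 to 46847458), chromosome 7 (Irf3, 44997648 to 45002848, and Irf7, 141263183 to 141266499), chromosome 6 (Irf5, 29526130 to 29541869) and chromosome 14 (Irf9, 55603985 to 55610030). Each sequence covers the 250 bases before the start site, and capitals mark matches to the gamma-activated site TTCNNNGAA, an element of interferon gamma response genes.
Irf4, chr13:30748983-30749232: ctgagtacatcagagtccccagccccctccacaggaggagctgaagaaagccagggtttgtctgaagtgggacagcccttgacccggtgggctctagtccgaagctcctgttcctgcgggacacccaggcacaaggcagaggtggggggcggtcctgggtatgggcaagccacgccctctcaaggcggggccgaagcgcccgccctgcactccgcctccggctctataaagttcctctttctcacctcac
Irf8, chr8:120736108-120736357: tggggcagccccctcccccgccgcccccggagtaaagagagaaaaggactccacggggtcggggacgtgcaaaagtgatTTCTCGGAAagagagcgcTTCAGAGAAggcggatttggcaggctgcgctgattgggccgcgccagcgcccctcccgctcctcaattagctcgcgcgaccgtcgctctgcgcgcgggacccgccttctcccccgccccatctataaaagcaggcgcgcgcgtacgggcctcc
The Irf8 stretch holds 2 such matches, which begin 171 and 153 bases before the start, and the Irf4 stretch holds none.

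A motif search covered both strands of windows of 300 bases, of which 250 lie before the start. The motifs were the core of the interferon-stimulated response element (GAAA, 2 free bases, GAAA), the gamma-activated site TTCNNNGAA, which reads the same on both strands, the composite of an ETS and an IRF site (GGAA, 2 free bases, GAAA) and an NF-kappaB motif (GGGA, 1 free base, TTTCC). The composite and the response element core can overlap. Of all 32851 windows in the table, 3.44% held the response element core, 8.3% the gamma-activated site, 2.72% the composite and 0.411% the NF-kappaB motif. All 8 genes had a window, 11 in all, of which 3 held a match, those of Irf1, Irf2 and Irf8. The stretches of Irf1 and Irf2 are shown with matches in capitals because these genes did not pass the test, so that matches stood both in a gene that fell and in genes that were not called.
Irf1, chr11:53769904-53769963: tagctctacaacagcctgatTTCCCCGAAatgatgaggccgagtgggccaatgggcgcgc
Irf2, chr8:46739495-46739554: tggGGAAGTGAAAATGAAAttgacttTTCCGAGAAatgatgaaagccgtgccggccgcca
Irf1 held 1 gamma-activated site, 90 bases before the start. Irf2 held a composite that begins 247 bases before the start and overlaps a response element core at 241, and a gamma-activated site at 224. The other window of Irf8 and that of Irf1, at further start sites, held none. A match is a description of the letters and no measure of binding.

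Of the sensing factors, Irf3 and Irf7 were slightly higher and Irf5 slightly lower in threat animals. Irf3, which is expressed in most cells and drives the early interferon beta response, had HighThreat values from 6.96 over a median of 7.00 to 7.06, against 6.76, 6.66 and 6.95 in the LowThreat pools. The groups came close to each other without overlapping, and Irf3 rose by 0.21 (SE 0.061, adjusted p = 0.0120), 1.16-fold. Without pool 3-4 its difference was 0.15 (adjusted p = 0.0752). The 4 probe sets of Irf3 differed: the next brightest rose by 0.21 (SE 0.070, adjusted p = 0.0366 over probe sets), the third differed by 0.0037 (SE 0.080, adjusted p = 0.976) and the dimmest by -0.24 (SE 0.10, adjusted p = 0.0819). Where a probe set whose name marks no shared or alternative transcripts was preferred, the Irf3 difference was 0.0037 (adjusted p = 0.974), and with the mean of its probe sets 0.046 (adjusted p = 0.539), so the rise of Irf3 rests on the choice of probe set.

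Irf7, the interferon-inducible factor that amplifies interferon alpha production, had HighThreat values from 6.71 over a median of 6.81 to 6.88, against 6.71, 6.72 and 6.56 in the LowThreat pools. The groups overlapped. Irf7 rose by 0.15 (SE 0.055, adjusted p = 0.0449), 1.11-fold, just past the threshold. Without pool 5-6, the lowest array, the difference was 0.094 (adjusted p = 0.209), and the call was lost in 11 of 20 alternative fits, whose adjusted p ran from 0.0268 to 0.209.

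Irf5, which drives inflammatory cytokine genes downstream of MyD88, had HighThreat values from 8.30 over a median of 8.37 to 8.44, against 8.46, 8.55 and 8.54 in the LowThreat pools. Every threat animal lay below every pool, with little room between the groups. Irf5 fell by 0.15 (SE 0.049, adjusted p = 0.0240), 1.11-fold, and its dimmer probe set differed by -0.12 (SE 0.069, adjusted p = 0.197). The call was lost without pool 3-4 (adjusted p = 0.0845) and without pool 5-6 (adjusted p = 0.0707).

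Irf9, the DNA-binding subunit of ISGF3, had the largest rise of the family, which was still small. Its HighThreat values ran from 7.23 over a median of 7.31 to 7.34, against 6.99, 6.95 and 7.14 in the LowThreat pools. Every threat animal was above every pool. Irf9 rose by 0.27 (SE 0.053, adjusted p = 0.00099), 1.21-fold, and it passed in all 20 alternative fits, with differences from 0.23 to 0.33.

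Irf1 and Irf2, the activator and the repressor of the same element, did not pass. Irf1 had HighThreat values from 9.61 over a median of 9.77 to 9.78, against 9.80, 9.85 and 9.83 in the LowThreat pools. The values did not overlap, yet the difference of -0.08 (SE 0.050, adjusted p = 0.204) was small and did not pass. Threat animal 1 lay apart from the 5 others, at 9.61 where they had 9.76 to 9.78. Irf2 had HighThreat values from 5.68 over a median of 5.89 to 5.95, against 6.02, 5.86 and 5.70 in the LowThreat pools. Its groups overlapped, with a difference of -0.01 (SE 0.078, adjusted p = 0.910) whose sign turned under quantile normalization (0.029). Values of Irf1 and Irf2 thus lay close together in the 2 conditions, although a failed test does not show that they were equal. Of the 8 genes, 6 had groups that did not overlap (all but Irf2 and Irf7), where 41.8% of all genes did.

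**Figure D2:**
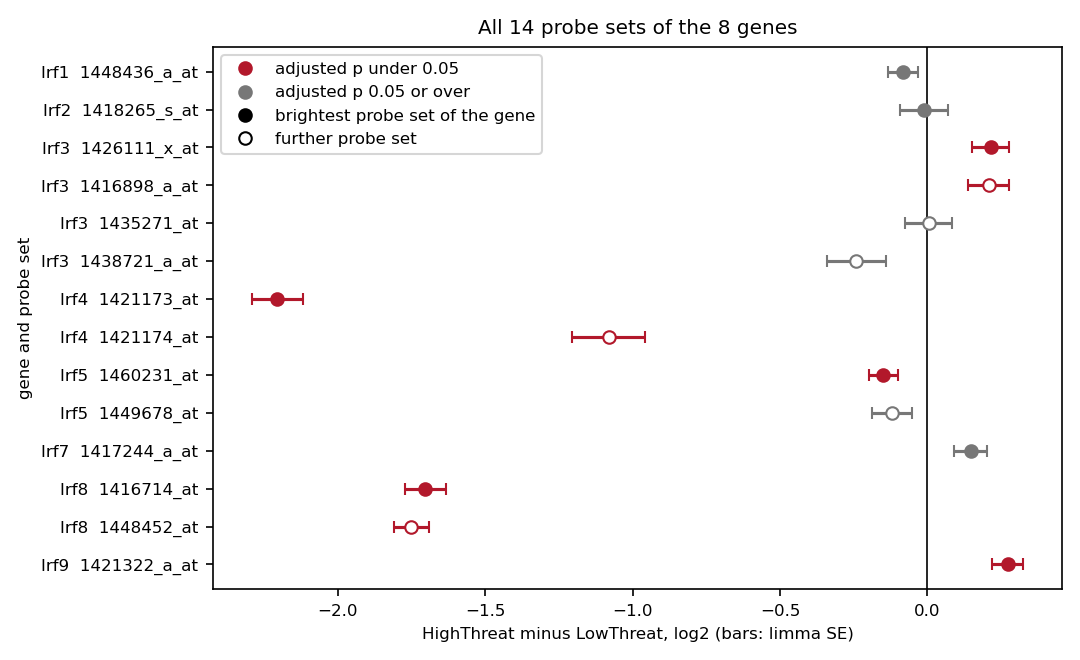
Differences in log2 expression, HighThreat minus LowThreat (horizontal axis), are given for all 14 probe sets of the 8 genes (vertical axis), with limma standard errors as bars, filled symbols for the brightest probe set of a gene, open symbols for further ones and red where the adjusted p over 27022 probe sets was under 0.05. In this fit 3 probe sets rose and 5 fell, where 39.8% of all probe sets were called. Both probe sets of Irf4 and of Irf8 lie at -1.08 or lower, and the 4 of Irf3 lie on both sides of 0.

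Partner factors of the IRFs, mainly of IRF4 and IRF8 but also Stat2, Crebbp and Ep300, moved in both directions. Of 12 tested partner genes, 3 rose and 7 fell, where 23.8% and 22.0% of all genes did, and the median was -0.21. Spib, the ETS partner of B cells and plasmacytoid dendritic cells, fell by 2.29 (SE 0.11, adjusted p = 5.1e-09), with 4.73 ± 0.20 in HighThreat and 7.03 ± 0.13 in LowThreat arrays. Its paralogue Spi1, which encodes PU.1 and serves all myeloid cells, rose by 0.52 (SE 0.056, adjusted p = 8.0e-06). The E protein gene Tcf3 fell by 0.83 (SE 0.073), and Stat2 differed by -0.06 (adjusted p = 0.757). Among genes named after their values were seen, Batf rose by 0.53 (SE 0.061) and Batf3, the factor that dendritic cells of the CD8 lineage need, fell by 0.67 (SE 0.078).

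Of 19 tested sensors, adaptors and kinases that activate IRF3, IRF5 and IRF7, 9 rose and 2 fell, where 23.8% of all genes rose and 22.0% fell. The median of 0.05 was close to that of all genes (0.03). Without pool 5-6, 1 fell. The IRF3 kinase gene Ikbke rose by 1.93 (SE 0.098, adjusted p = 1.1e-08), with HighThreat values from 8.62 to 8.93 and LowThreat values of 6.68, 6.85 and 7.15. Myd88, the adaptor of most Toll-like receptors, rose by 0.59 (SE 0.042, adjusted p = 2.2e-07). Tbk1, the other IRF3 kinase gene and one named after its values were seen, differed by 0.05 (SE 0.074, adjusted p = 0.658). The 2 genes that fell were Traf6 (-0.36, SE 0.060) and Irak1 (-0.16, SE 0.048), both of the MyD88 route.

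In the list of interferon receptors and JAK kinases 4 of 7 rose and 2 fell (median 0.25), where 23.8% of all genes rose and 22.0% fell. The kinase gene Tyk2 of the type I receptor rose by 0.53 (SE 0.062, adjusted p = 1.5e-05), and the receptor chain Ifngr1 of interferon gamma fell by 0.44 (SE 0.052, adjusted p = 1.6e-05). Jak2, a kinase of the interferon gamma receptor, differed by 0.03 (adjusted p = 0.671). The corepressors and inhibitors had 6 of 12 higher and 3 lower (median 0.12), the lower share being near that of all genes. Usp18, an interferon-induced inhibitor of the type I receptor, rose by 1.15 (SE 0.064, adjusted p = 2.2e-08) and the cytokine signalling inhibitor Socs3 by 0.90 (SE 0.052, adjusted p = 3.1e-08), while Socs1 differed by 0.05 (adjusted p = 0.435). The ubiquitin-editing gene Tnfaip3 rose by 0.17 (SE 0.055, adjusted p = 0.0204). All 3 genes that fell encode partners of the IRF2 repressor: Irf2bpl (-0.76, SE 0.070), Irf2bp2 (-0.35, SE 0.072) and Irf2bp1 (-0.17, SE 0.056).

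Genes downstream of ISGF3 rose far more often than they fell, and Irf9 itself rose by 0.27. With Irf7 and Irf9 left out of their own list, 23 of 27 tested genes rose and 0 fell by limma, where 23.8% of all genes rose, and the median was 0.60. At an unadjusted p under 0.05, 1 was lower. The 4 that did not pass were Stat2 and, named after their values were seen, Mx2 (0.17, adjusted p = 0.0779), Bst2 (-0.15, adjusted p = 0.0935) and Ifi35 (0.0030, adjusted p = 0.969). Ifit1, which binds viral RNA caps, had HighThreat values from 8.01 to 8.37 and LowThreat values of 6.84, 6.91 and 6.73, and rose by 1.36 (SE 0.076, adjusted p = 2.4e-08). Every threat animal stood above every pool. Oasl1, which represses translation of Irf7 mRNA in mouse, rose by 0.49 (SE 0.070, adjusted p = 8.7e-05). Across animals the mean of the list, Irf7 and Irf9 included, lay between 7.00 and 7.15 in HighThreat and between 6.51 and 6.54 in LowThreat arrays. An earlier description of these data had already noted higher interferon-induced genes, so this count is no independent support for it.

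Cytokine genes under IRF3, IRF5 and IRF7 rose more often than they fell. Of 11 tested, 7 rose and 2 fell, where 23.8% of all genes rose and 22.0% fell, and the median was 0.56. The interferon beta gene Ifnb1 differed by 0.07 (SE 0.096, adjusted p = 0.612), with 4.04 ± 0.17 in HighThreat and 3.97 ± 0.13 in LowThreat arrays. The chemokine gene Ccl3 rose by 0.82 (SE 0.054, adjusted p = 9.5e-08) and the interleukin-1 beta gene Il1b by 0.56 (SE 0.047, adjusted p = 8.2e-07), whereas Il6 fell by 1.40 (SE 0.058, adjusted p = 2.0e-09). The 2 genes for the chains of interleukin-12, named after their values were seen, moved apart. Il12a, the p35 chain, had HighThreat values from 6.22 to 6.79 and LowThreat values of 4.26, 3.89 and 4.67, and rose by 2.29 (SE 0.15). Il12b, the p40 chain and a target of IRF8, had HighThreat values from 3.40 to 3.81 and LowThreat values of 5.34, 5.34 and 4.74, and fell by 1.54 (SE 0.13).

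Of 19 known targets of IRF1, 4 rose and 9 fell, against a background of 23.8% higher and 22.0% lower that also applies to the target lists of IRF8 and IRF4. The median was -0.06, and 2 rose without pool 5-6. Gbp2, a guanylate-binding protein of cell-autonomous defence, rose by 0.60 (SE 0.056, adjusted p = 2.4e-06). The adhesion receptor gene Vcam1 fell by 0.96 (SE 0.083, adjusted p = 1.2e-06), and B2m, the light chain of MHC class I, by 0.15 (SE 0.046, adjusted p = 0.0218). Of 20 known targets of IRF8, 11 fell and 4 rose, with a median of -0.17. Klf4, a factor of monocyte differentiation, fell by 1.33 (SE 0.057, adjusted p = 2.5e-09), and the B cell factor gene Ebf1 fell by 2.59 (SE 0.12, adjusted p = 5.3e-09), while the lysosomal protease gene Ctss differed by 0.05 (adjusted p = 0.428). Of 8 tested targets of IRF4, 6 fell and 2 rose, with a median of -0.70. Pou2af1, a coactivator of B cells, fell by 2.59 (SE 0.13, adjusted p = 1.1e-08), and the chitinase-like gene Chil3 of macrophages and granulocytes rose by 0.74 (SE 0.053, adjusted p = 2.1e-07). Klf4 stands in the lists of both IRF8 and IRF4, and Ebf1 and Pou2af1 also stand among the B cell markers, so these counts share genes.

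**Figure D3:**
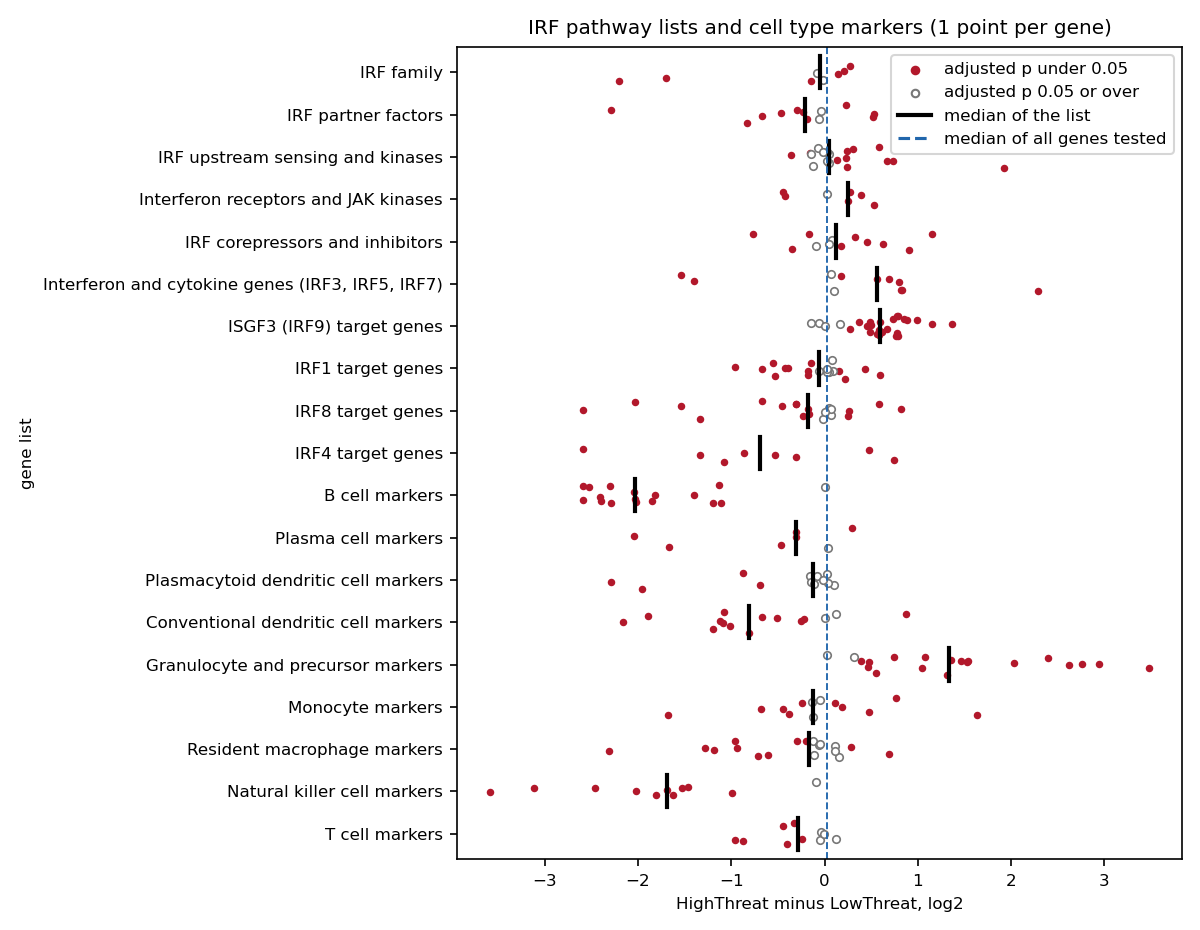
Differences in log2 expression, HighThreat minus LowThreat (horizontal axis), are shown for the genes of 19 lists (vertical axis), 1 point per gene, red where the adjusted p was under 0.05, with the median of each list as a black bar and that of all tested genes (0.03) as a dashed line. The 8 IRF genes are drawn in their own list only. ISGF3 targets lie mostly above 0 (median 0.60), while markers of B cells (-2.03), natural killer cells (-1.69) and conventional dendritic cells (-0.81) lie below it.

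Among cell types that normally carry Irf4 or Irf8, markers of B cells, plasma cells and conventional dendritic cells were mostly lower, few plasmacytoid dendritic cell markers fell, and monocyte markers split. All cell type counts here and below stand against 23.8% of all genes higher and 22.0% lower. Of 17 tested B cell markers 16 fell and 0 rose by limma (0 also at an unadjusted p under 0.05), the exception being Pax5 (0.0077, adjusted p = 0.931), and the list mean lay between 4.99 and 5.36 in HighThreat and between 6.94 and 7.17 in LowThreat arrays. Cd79a, a signalling chain of the B cell receptor, fell by 2.31 (SE 0.097), the intracellular Fc receptor-like gene Fcrla fell by 2.02 (SE 0.076), and Ighm fell by 1.13 (SE 0.091). In the plasma cell list 5 of 7 fell and 1 rose, with means between 6.43 and 6.52 in HighThreat and between 7.01 and 7.19 in LowThreat arrays. The gene that rose was Sdc1 (0.29, SE 0.059), and Derl3 was not called (0.04, adjusted p = 0.558), both named after their values were seen. Jchain fell by 2.05 (SE 0.13) and Mzb1 by 1.67 (SE 0.083). Xbp1, the secretory factor of plasma cells, fell by 0.47 (SE 0.049).

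Of 15 conventional dendritic cell markers 12 fell and 1 rose (Naaa, by 0.87, named after its values were seen). The list means lay between 5.65 and 5.70 in HighThreat and between 6.40 and 6.44 in LowThreat arrays. Ccr7, which guides dendritic cells and lymphocytes to T cell zones, fell by 1.89 (SE 0.050), the lectin gene Cd209a by 2.16 (SE 0.074) and the MHC class II gene H2-Eb1 by 1.20 (SE 0.044). Falls were small for Xcr1 (0.25, SE 0.064) and Clec10a (0.22, SE 0.065). Cd8a (0.12, adjusted p = 0.120) and Esam (0.0015, adjusted p = 0.987) were not called. Xcr1, Clec10a, Cd8a and Esam were named after their values were seen. Of 12 plasmacytoid dendritic cell markers 4 fell and 0 rose by limma, and at an unadjusted p under 0.05 6 were lower and 0 higher. The background was 22.0% lower, and Spib and Ly6d, 2 of the 4, are also B cell genes. Without pool 5-6, 7 fell. The list mean lay between 4.80 and 4.89 in HighThreat and between 5.27 and 5.39 in LowThreat arrays. Ly6d fell by 1.96 (SE 0.083), whereas Siglech, the defining receptor, differed by -0.11 (adjusted p = 0.274) and Tlr7 by 0.02 (adjusted p = 0.771). The part of these cell types in the falls of Irf4 and Irf8 was not tested.

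Among the other cell types that the sort could hold, 18 of 20 granulocyte and precursor markers rose and 0 fell by limma (19 and 0 at an unadjusted p under 0.05), with list means between 9.29 and 9.70 in HighThreat and between 8.02 and 8.16 in LowThreat arrays. The collagenase gene Mmp8 rose by 2.76 (SE 0.060), Stfa2l1, a stefin of a family of near-identical copies and so uncertain, by 2.03 (SE 0.065) and S100a9 by 0.47 (SE 0.043). Monocyte markers split, with 5 of 13 higher and 5 lower and means between 9.18 and 9.32 in HighThreat and between 9.21 and 9.36 in LowThreat arrays. Vcan rose by 1.64 (SE 0.10) and Cd36 fell by 1.68 (SE 0.096). Of 18 resident macrophage markers 9 fell, 2 rose and 7 were not called. Their means lay between 6.26 and 6.38 in HighThreat and between 6.65 and 6.78 in LowThreat arrays. Hpgd fell by 2.31 (SE 0.079), Timd4 by 1.19 (SE 0.072) and Hmox1 by 0.20 (SE 0.070). The 2 that rose, named after their values were seen, were Adgre1 (0.69, SE 0.055) and Slc40a1 (0.28, SE 0.059). Of 11 natural killer cell markers 10 fell and 0 rose by limma (10 and 0 at an unadjusted p under 0.05). Their means lay between 3.71 and 3.90 in HighThreat and between 5.55 and 5.77 in LowThreat arrays. Klrd1 fell by 1.52 (SE 0.055) and Klra8, uncertain because its family holds near-identical copies, fell by 3.58 (SE 0.11). The Klra8 mean was 1.84 in HighThreat, below the filter value of 2.66, and 5.42 in LowThreat arrays. Klra8 thus passed the filter through its LowThreat values, and the size of its fall is uncertain. The same holds for Tbx21 (2.19 and 4.00), named after its values were seen. Of 10 T cell markers 6 fell and 0 rose by limma (6 and 0 at an unadjusted p under 0.05, and 3 lower with the filter at the 60th percentile), among them Cd5 (-0.96, SE 0.11), Cd3d (-0.87, SE 0.11) and Il7r (-0.24, SE 0.074). The values carry no detection call, so no marker was called absent.

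Irf8 also differed among the threat animals, and its order followed the means of the granulocyte and B cell lists, the 2 lists whose relation to the members was computed. Its values were 6.50, 6.45, 6.43, 6.37, 6.23 and 6.28 in threat animals 1 to 6, and the granulocyte list means of the same animals were 9.70, 9.63, 9.58, 9.54, 9.29 and 9.30. The animal with the highest Irf8 thus had the highest granulocyte score, although granulocyte markers were higher and Irf8 lower in HighThreat than in LowThreat arrays. Over the 6 animals Pearson's r reached 0.982 (exact permutation p = 0.00139, 0.0222 after adjustment for 16 relations). Spearman's rho reached 1 (exact permutation p = 0.00278, 0.0444 after adjustment). Animals 5 and 6 stood apart from animals 1 to 4 in this score, and without these 2, the farthest from its median, r was 0.961. The B cell score gave an r of 0.967 (exact permutation p = 0.00278, 0.0222 after adjustment) and a rho of 0.943 (exact permutation p = 0.0167, 0.133 after adjustment). Without the same 2 animals r was 0.914. The B cell means were 5.36, 5.32, 5.22, 5.18, 5.01 and 4.99 in animals 1 to 6, so both scores had nearly the same order and the relation is not particular to either. Irf8 and both scores also largely fell with animal number, and the relation cannot be told apart from one with that number. In LowThreat pools 1-2, 3-4 and 5-6 Irf8 was 8.18, 8.04 and 8.02. The granulocyte means there were 8.16, 8.06 and 8.02, and the B cell means 7.17, 6.94 and 7.03. Some other lists ran largely the other way. The monocyte means were 9.18, 9.22, 9.21, 9.20, 9.32 and 9.26 in animals 1 to 6. The ISGF3 target means were 7.00, 7.08, 7.11, 7.11, 7.15 and 7.11. The conventional dendritic cell means, between 5.65 and 5.70, did not follow the order: they were 5.70, 5.70, 5.65, 5.68, 5.70 and 5.68. The relations of these lists to Irf8 were not tested. For Irf4, r was 0.715 with the granulocyte score (exact permutation p = 0.0917, adjusted 0.311) and 0.807 with the B cell score (exact permutation p = 0.0917, adjusted 0.311). The other 6 genes had adjusted p from 0.311 to 0.878 in the same family of 16 relations, all two-sided.

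**Figure D4:**
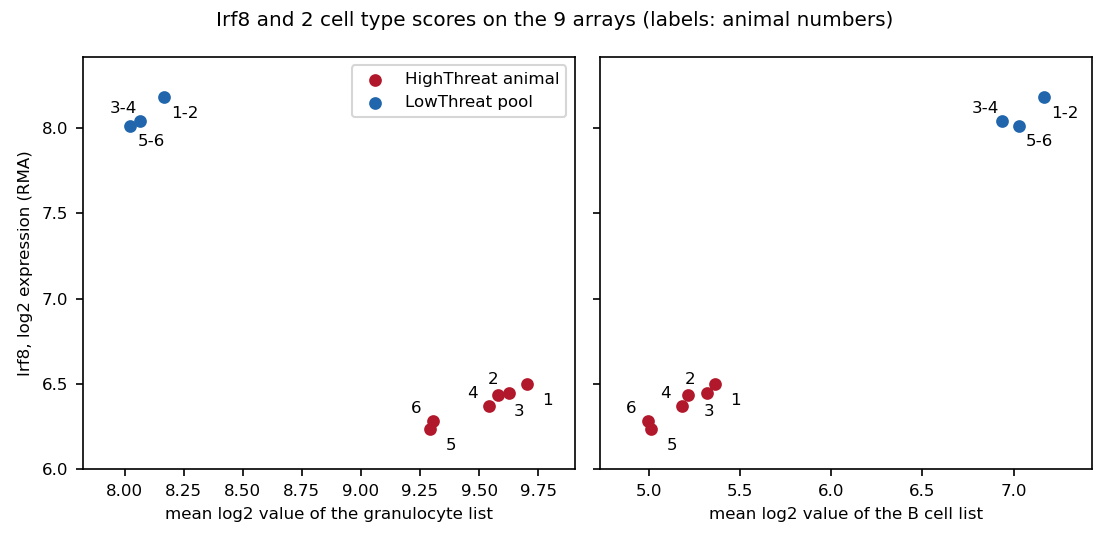
Irf8 log2 expression (vertical axis) is set against the mean log2 value of the granulocyte list (left) and of the B cell list (right) on each array, red for HighThreat animals and blue for LowThreat pools, with the animal numbers beside the points. Within HighThreat both relations run upwards (r = 0.982 and 0.967), while between groups Irf8 and the granulocyte mean lie on opposite sides.

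The genes most like Irf4 and Irf8 were sought over the 9 arrays by Pearson correlation, as a description. This measure is carried mainly by the difference between the groups, and all genes share the arrays. Nearest to Irf4 were the mitochondrial chaperone gene Hspd1 (r = 0.999), the fatty acid desaturase gene Scd1 (0.998) and Cd209a (0.998), whose differences were -0.53, -2.42 and -2.16. Nearest to Irf8 were the nucleosome-binding protein gene Hmgn1 (r = 0.999), Gramd3 (0.999) and the lymphocyte adhesion gene Cd2 (0.998), whose differences were -1.48, -1.62 and -2.16. On deviations from the group means, which leave out that difference, r between members ran from -0.837 (Irf2 with Irf5) to 0.762 (Irf4 with Irf8), with -0.825 for Irf5 with Irf8 and 0.750 for Irf3 with Irf9. By the same measure Irf4 was nearest to Herc4 (r = 0.973), Nubpl (0.968) and Pcsk6 (0.959), and Irf8 to Gnpat (0.988), the cyclin gene Ccnd3 (0.983) and Tecr (0.980). These are the highest r among all tested genes over only 9 arrays, so values this high can arise from the selection alone. Of these, Ccnd3 rose by 0.74 (SE 0.097) and Tecr by 0.19 (SE 0.063), so the genes ranked nearest to Irf8 by this measure included some that rose where Irf8 fell.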

How the data were processed

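The deposited log2 values are RMA output made by the authors, per the submitters' processing notes, with no version or options stated there. RMA removes background, makes arrays alike in distribution and joins probes into a probe set value. The range of 0.607 to 13.567 gave the log base. A difference in total RNA per cell would not be seen after such normalization.

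Of 45037 probe sets that are not controls, 34945 named 1 gene, 932 several and 9160 none, and symbols were updated through the Entrez number to RefSeq names (GRCm38.p6) for 34741 and kept for 204. Genes entered the test where the mean over all arrays was at least the 40th percentile of probe sets, a log2 value of 2.66. HighThreat and LowThreat were compared with limma 3.58.1 in R 4.3.3, both groups sharing 1 estimate of the spread, with Benjamini-Hochberg adjustment at 0.05. The fit was tested on simulated data. All tests were two-sided. Array number limits the precision.

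Members and lists were chosen with earlier results of these data known. The text names all 8 members, per list the 2 lowest in p and the brightest, a few fixed genes (Itgam, Stat2, Spi1, Socs1, Usp18 and Ifnb1), and the 3 genes most like each member called at 1.5-fold or more; others were named after their values were seen. Alternatives covered the filter, the probe set, normalization, limma settings, weights, a replicate block, averaging in number pairs and leaving out each array.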

Additional observations from a re-analysis of the deposited data

Results flagged for a closer look

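Values of the 6 HighThreat arrays were screened for a single array far from the rest, where its gap to the nearest other exceeds Dixon's critical share of the range (0.625). Of 89 series screened, 6 had such an array, and chance flags about 1 in 20. Irf1 was 9.61 in threat animal 1, where the others had 9.76 to 9.78. The third probe set of Irf3 was 3.95 in threat animal 4, where the others had 4.15 to 4.21. The mean of the IRF partner factors was 6.70 in threat animal 6 against 6.77 to 6.81 in the others. That of the plasmacytoid dendritic cell markers was 4.89 in threat animal 1 against 4.80 to 4.83. Il6 was 6.18 in threat animal 6 against 6.31 to 6.37, and the plasma cell gene Mzb1 was 5.35 in threat animal 5 against 5.57 to 5.67.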

How the results depend on the processing

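The number of IRF genes called was 6 and ran from 4 to 6 when single arrays were left out, with 4 without pool 3-4 and without pool 5-6. All genes called numbered 5995 and ran from 5310 to 6283 over the 20 alternatives. Over 20 alternative fits Irf4 (-2.26 to -1.64), Irf8 (-1.74 to -1.65) and Irf9 (0.23 to 0.33) kept direction and call, Irf1 stayed uncalled, and Irf3, Irf5 and Irf7 lost their call in 3, 2 and 11. Irf2, never called, was 0.029 under quantile normalization and ran from -0.092 to 0.068 with single arrays left out. Over all 13078 genes deviations of same-numbered animals and pools correlated at 0.149, -0.152 and -0.029. Those of differently numbered ones ran from -0.110 to 0.158. With only 3 pools these correlations cannot decide whether animal numbers pair the arrays. With the numbers as a replicate block 5945 genes were called, and Irf7 lost its call (adjusted p = 0.0659). The block lowered the SE of Irf4 from 0.084 to 0.050 and that of Irf8 from 0.067 to 0.048. Without the 2 farthest animals, correlations changed sign with the B cell score for Irf2 (-0.43), Irf3 (-0.018) and Irf9 (-0.87), and with the granulocyte score for Irf2 (-0.18), Irf3 (-0.18) and Irf9 (-0.96); the cause was not tested. With probe sets averaged per gene, 1 interferon receptor gene fell in place of 2, and 0 plasma cell genes rose in place of 1.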
